A study of Mus musculus with 8 samples.

Results

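Cholesterol is built from acetyl-CoA by a chain of enzymes, and 8 genes of that chain were followed here in mouse brain, kidney and liver after lead in the drinking water: Hmgcs1, Idi1, Fdps, Fdft1, Sqle, Lss, Cyp51 and Dhcr7. The members were all non-control probes that the array names for one of these genes, which gave 14 probes for 8 genes out of 56605 probes on the array. They were chosen with their differences from the control arrays known, so the lead comparisons below describe the arrays and carry no test. Each group had 1 array. Brain and kidney each had a distilled-water control, lead acetate at 100 mg/L (low dose) and lead acetate at 1000 mg/L (high dose), and liver had the high dose and a distilled-water control, all from male mice after 3 weeks. Strain, age and the number of animals behind a sample are not given in the sources used here, and a low-dose liver array was not analysed here. RNA came from small pieces of each organ, so in these bulk samples fewer cells of a type and less RNA per cell cannot be told apart.

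The chain starts in the cytosol, where Hmgcs1 (HMG-CoA synthase) joins acetyl-CoA to acetoacetyl-CoA on the way to mevalonate. Idi1 then isomerises the first isoprene unit, Fdps builds farnesyl diphosphate from such units, and Fdft1 (squalene synthase) joins farnesyl diphosphate head to head into squalene, the first committed sterol precursor. Sqle adds an oxygen to squalene, Lss closes the rings to lanosterol, Cyp51 removes a methyl group from lanosterol, and Dhcr7 reduces 7-dehydrocholesterol to cholesterol. The genes are known targets of SREBP-2, a transcription factor that is held in the endoplasmic reticulum by Scap and the Insig proteins while sterols are plentiful and is released when they fall. Liver makes cholesterol for lipoproteins and bile acids, whereas the adult brain makes its own, since plasma cholesterol hardly crosses the blood-brain barrier.

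Promoters were read because these genes are known to share regulators, and RefSeq windows of the GRCm38.p6 build were found for 5 of the 8 members, as 7 windows (3 of them for Dhcr7). Fdps, Fdft1 and Sqle had no entry. In the 250 bases before each annotated start, 3 motifs were searched on both strands: the sterol regulatory element TCACNCCAC, the CCAAT box (CCAAT, or ATTGG on the other strand) and the GC box GGGCGG. The sterol element was matched in 1.05% of all 32851 windows of the same length, the CCAAT box in 33.8% and the GC box in 32.7%. Hmgcs1 was the only one of the 5 with a sterol element match, which began 137 bases before the start, and it had 3 CCAAT boxes, at 237, 176 and 45 bases. Idi1 had CCAAT boxes at 45 and 14 bases, Cyp51 had 1 at 29 bases, Lss had 1 at 62 bases, and 1 of the 3 Dhcr7 windows had a pair, at 85 and 49 bases. A GC box was present in all but 1 of the 7 windows, the exception being a Dhcr7 window. A match describes letters and is not a shown binding site. The windows of Hmgcs1 (with the sterol element) and of Idi1 and Cyp51 (whose kidney differences were the largest) are given 5′ to 3′ on the gene's strand, with sterol element and CCAAT matches in capitals.
Hmgcs1, chr13:119690101-119690350, plus strand: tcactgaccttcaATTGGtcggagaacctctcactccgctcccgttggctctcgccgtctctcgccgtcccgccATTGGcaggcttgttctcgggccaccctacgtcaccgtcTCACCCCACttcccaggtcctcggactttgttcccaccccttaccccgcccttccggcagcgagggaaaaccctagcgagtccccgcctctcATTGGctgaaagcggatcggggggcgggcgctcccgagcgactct
Idi1, chr13:8885356-8885605, plus strand: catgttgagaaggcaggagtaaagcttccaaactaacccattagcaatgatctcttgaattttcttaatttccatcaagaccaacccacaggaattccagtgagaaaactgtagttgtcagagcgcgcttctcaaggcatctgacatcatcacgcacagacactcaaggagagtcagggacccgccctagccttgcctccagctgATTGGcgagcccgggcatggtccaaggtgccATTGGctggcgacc
Cyp51, chr5:4104698-4104947, minus strand: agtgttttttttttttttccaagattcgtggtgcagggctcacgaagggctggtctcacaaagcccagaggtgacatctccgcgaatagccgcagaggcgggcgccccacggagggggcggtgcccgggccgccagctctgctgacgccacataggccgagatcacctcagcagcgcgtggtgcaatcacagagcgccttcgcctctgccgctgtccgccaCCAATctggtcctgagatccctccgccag

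A level is the log2 signal of a probe minus the 75th percentile of log2 signal on that array, and a difference is the level with lead minus the level in the control of the same tissue. Array error is the scanner software's error of both spots on the log2 scale, close to 0.20 for the members, and it holds no variation between animals or tissue pieces. A gene is given by its brightest probe and passed the size rule when the difference was at least 1 in size and over 3 array errors, with the probe unsaturated and well above background on each of the pair of arrays. A lower size of 0.5 with over 2 array errors was counted beside it. Probes repeated 10 times on an array gave a spread of the difference of 0.04 to 0.07. The 8 reported probes were well above background on all 8 arrays, and none was saturated. Over the 8 arrays, 53.4% to 67.1% of spots were well above background. Tissue labels matched defining markers. All 5 brain, all 5 kidney and all 5 liver markers were well above background on each array of their own tissue. The lists were not silent in other tissues. On each brain array 2 of the 5 liver markers were above background, and Alb, Apoa1 and Cps1 were not. On each brain and liver array 3 of the 5 kidney markers were, and Umod and Slc12a1 were not. Of the 5 brain markers, 2 to 4 were above it on the kidney and liver arrays. In the controls, the median level of the brain markers was 5.62 in brain, against -4.06 in kidney and -3.76 in liver.

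In liver, all 8 genes were lower at the high dose than in the control, by 34.9% (Fdft1) to 56.1% (Sqle) of the control signal. The median difference of the 8 was -0.93, against -0.02 over all 19167 genes measured on both arrays, whose differences had an SD of 0.27. Differences below 0 made up 53.9% of those genes. Hmgcs1, Fdps and Sqle passed the size rule, where 0.459% of all genes were called lower, and all 8 passed the lower size, where 2.63% were. The members were chosen on this contrast, so these counts describe the choice as well as the arrays. The 3 genes past the size rule lay close to it: with quantile normalization only Sqle passed, Hmgcs1 being at -0.96 and Fdps also at -0.96.

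The early steps were lower in the high-dose liver. Hmgcs1 had a level of 4.35 in high-dose liver, against 5.49 in control liver, a difference of -1.14. Idi1 had 3.07 in high-dose liver, against 3.82 in control liver, a difference of -0.76. Only Hmgcs1 of this pair passed the size rule, and 0.245% of all genes had a lower difference than Hmgcs1, compared with 1.11% for Idi1. Fdps had 4.88 in high-dose liver, against 5.95 in control liver, a difference of -1.07. Its product, farnesyl diphosphate, stands where the sterol branch parts from the branches to prenylated proteins, dolichol and coenzyme Q.

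From squalene onward the differences were of the same order. Fdft1 had 3.25 in high-dose liver, against 3.87 in control liver, which made -0.62 the smallest difference of the 8 members. Sqle had 0.91 in high-dose liver, against 2.09 in control liver, which made -1.19 the largest. Squalene epoxidase, the product of Sqle, is regarded as a rate-limiting enzyme of the later pathway. Lss had 1.10 in high-dose liver, against 2.03 in control liver, a difference of -0.93. Cyp51 had 1.48 in high-dose liver, against 2.41 in control liver, a difference of -0.93 as well. Dhcr7 had 0.96 in high-dose liver, against 1.86 in control liver, a difference of -0.90. The highest and the lowest of the 8 differences lay 0.57 apart.

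Further probes of the same genes gave the same direction. Of the 14 member probes, 12 were well above background on both liver arrays, and all 12 were lower at the high dose, by -0.39 to -1.19. Among these probes, 1 for Fdft1 and 1 for Cyp51 had a genomic span in mm9 longer than their own 60 bases, read here as an exon junction. Exon placement was not checked against an annotation. The sequences of both probes are given as further reporters of spliced transcripts, read on the same arrays as the brighter probes.
Fdft1, chr14:63765750-63769990 in mm9, minus strand: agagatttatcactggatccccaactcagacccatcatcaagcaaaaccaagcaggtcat
Cyp51, chr5:4092033-4092439 in mm9, minus strand: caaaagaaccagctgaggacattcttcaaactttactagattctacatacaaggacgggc
The Fdft1 junction probe read 1.46 in high-dose liver, against 2.07 in control liver, and its difference of -0.61 was next to the -0.62 of the brighter probe. The Cyp51 junction probe read -1.01 in high-dose liver, against -0.39 in control liver, a difference of -0.63 where the brighter probe gave -0.93. The other pair of Lss probes gave -0.39 and -0.82, so the size of the Lss difference depended on the probe. A second Hmgcs1 probe was not above background on either liver array and a second Sqle probe was never above background.

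**Figure D1:**
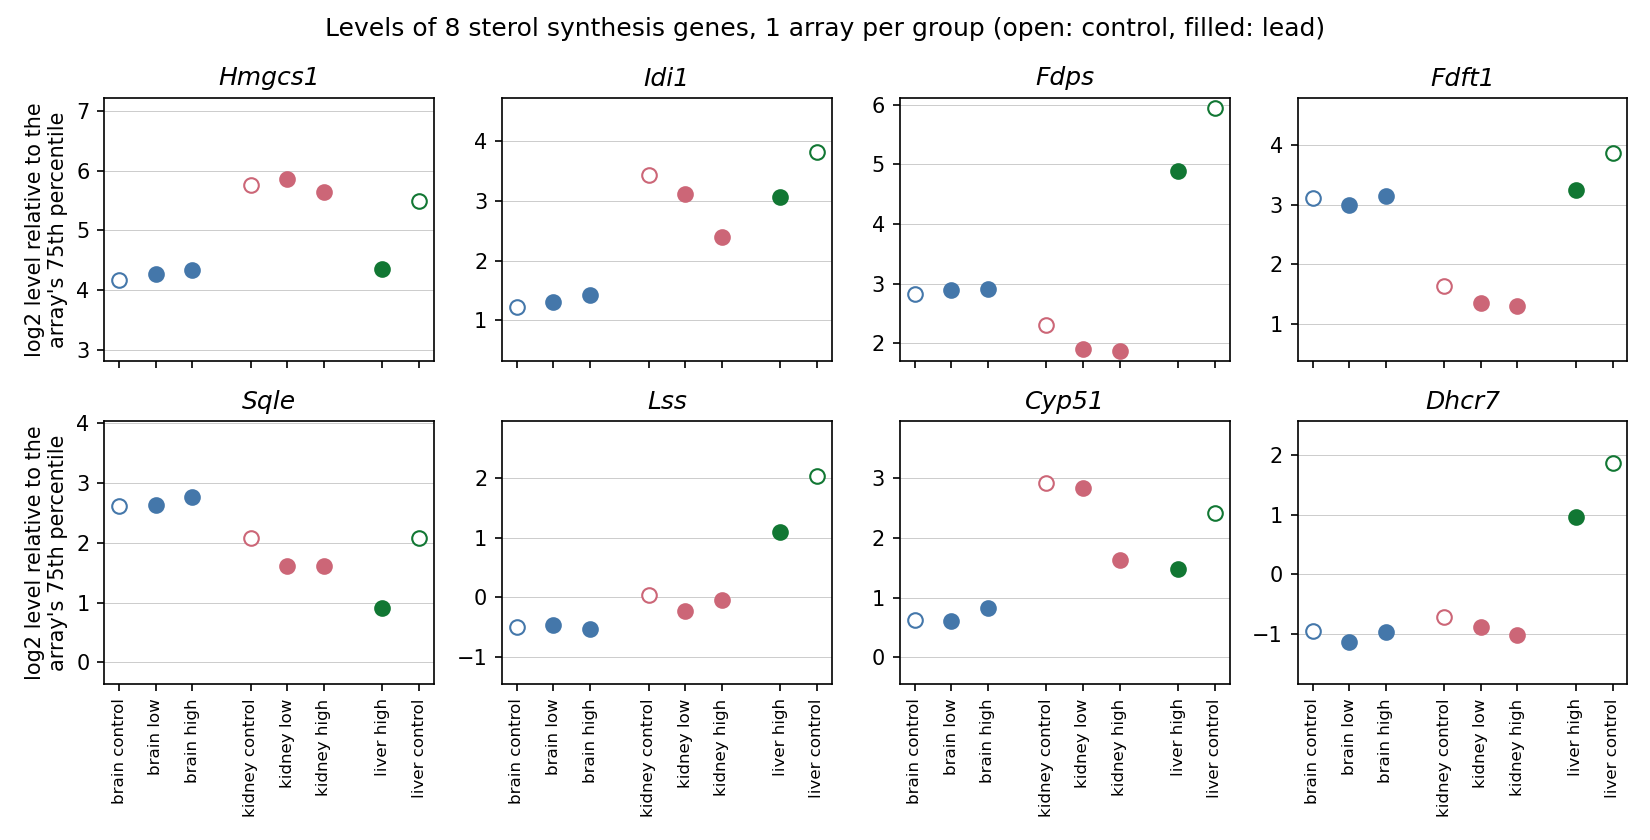
Levels of the 8 genes on each of the 8 arrays, on a log2 scale relative to each array's 75th percentile, each panel spanning the same range. Open points are controls and filled points are lead. High-dose liver lies below control liver in every panel, high-dose kidney lies apart from the other 2 kidney arrays for Idi1 and Cyp51, and the 3 brain arrays lie close together.

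In kidney, 2 of the 8 genes passed the size rule at the high dose and none at the low dose. All 8 differences were below 0, as were 56.0% of all 21355 genes measured on both arrays, and the median was -0.39 against -0.03 over all genes. The 2 past the size rule were Idi1 and Cyp51 (0.539% of all genes were called lower), and they were the only members past the lower size (3.14%). Cyp51 had levels of 2.91 in control, 2.84 in low-dose and 1.63 in high-dose kidney. Its difference was -0.07 at the low dose and -1.28 at the higher one, so the high-dose array stood apart from the other 2. The Cyp51 junction probe had 0.19 in control, 0.26 in low-dose and -0.97 in high-dose kidney, with differences of 0.07 and -1.16. Both Cyp51 probes passed the size rule at the high dose.

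Idi1 had levels of 3.43 in control, 3.11 in low-dose and 2.39 in high-dose kidney, with differences of -0.32 and -1.04. The Idi1 value fell short of the size rule under 1 other normalization, at -0.98. High minus low dose gave -1.21 for Cyp51 and -0.72 for Idi1, and of the 8 genes Cyp51 alone passed the size rule there, where 0.239% of all genes were called lower. The median of the 8 in that comparison was -0.10. Both comparisons with water share the control kidney array, so they are not independent of each other.

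A second group of members was a little lower on both lead arrays of kidney, by less than the lower size rule. Fdps had 2.31 in control, 1.91 in low-dose and 1.87 in high-dose kidney. Sqle had 2.08 in control, 1.62 in low-dose and 1.61 in high-dose kidney. Fdft1 had 1.64 in control, 1.36 in low-dose and 1.30 in high-dose kidney, with the junction probe at -0.06, -0.44 and -0.42 in the same order. In these 3 genes the 2 lead arrays lay within 0.07 of each other and 0.28 to 0.47 below the control on the reported probes. Dhcr7 had -0.72 in control, -0.89 in low-dose and -1.02 in high-dose kidney, differences of up to 1.5 array errors. Lss had 0.03, -0.23 and -0.05 in the same order. Hmgcs1, the entry of the pathway, had 5.76 in control, 5.86 in low-dose and 5.64 in high-dose kidney, and its differences of 0.10 and -0.12 were within the array error, while its second, dim probe gave -0.46 and -0.50 and passed the lower size downward at the high dose. At the low dose 7 of the 8 genes lay below the control, as did 52.2% of all genes, with a median of -0.27 against -0.01 over all genes. None passed the size rule downward (0.272% of genes did) or the lower size (1.65%).

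Markers of other tissues differed between the kidney arrays. The 9 adrenal cortex markers summed to 5.54 in control, 1.54 in low-dose and 1.37 in high-dose kidney, in multiples of the 75th-percentile signal. Of these, 5 were measured on both arrays of each comparison, with median differences of -0.82 (low dose) and -1.16 (high dose), while Cyp11a1, Cyp11b2 and Mc2r were not above background in any kidney array. Summed hepatocyte markers were 34.9 in high-dose kidney, against 9.34 in control kidney, a sum that follows the brightest genes. Of the 9, 6 were measured on both arrays, with a median difference of 0.85. Past the size rule were 3: Serpina1a at 3.28, Ahsg at 1.38 and Alb at 1.22. Apoa1 and Cps1 were not above background on either array. The 8 spermatid markers summed to 5.4 in control, 3.39 in low-dose and 23.6 in high-dose kidney, with 6 of the 7 measured genes past the size rule at the high dose. Odf1 was not above background in any kidney array. Adipocyte markers summed to 21.8 in control, 17.6 in low-dose and 14.2 in high-dose kidney. At the high dose 6 of the 7 passed the lower size downward, where 3.14% of all genes did, with a median of -0.80. At the low dose 2 of the 6 measured passed it, where 1.65% of all genes did, with a median of -0.31. Of the 6 macrophage markers and the 6 markers of collecting duct and medulla, 3 each passed the lower size upward in high-dose kidney. Of all 21355 genes in that comparison, 239 passed the size rule upward and 808 the lower size. In high minus low dose, the measured adrenal markers had a median difference of 0.01, hepatocyte markers 1.04 (3 past the size rule) and spermatid markers 3.37 (4 past it). There, 176 of all 20896 genes passed the size rule upward. The part of any of these markers in the kidney differences of the sterol genes was not tested.

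Liver markers moved little beside the liver result. The 9 hepatocyte markers summed to 6460 in high-dose liver, against 6650 in control liver, with all 9 measured, none past the size rule and a median difference of -0.06. The summed macrophage markers were 39.3 in high-dose liver, against 41.4 in control liver. Blood markers summed to 680 in high-dose liver, against 574 in control liver, and spermatid markers to 1.11 and 1.04 in the same order. The 3 blood markers had a median difference of 0.20, with Alas2 at -0.26, and the 3 measured spermatid markers a median of 0.09. Adrenal cortex markers summed to 6.17 in high-dose liver, against 4.97 in control liver, with Cyp11a1 and Cyp11b1 not above background on either array. Of these markers 6 were measured on both arrays, 2 above and 4 below the control, with a median difference of -0.03. The largest was Cyp21a1 at 0.63, with its other probe at 0.20. The part of such differences in the sterol genes was not tested.

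In brain, no member passed either size in either direction at any dose. The median of the 8 was 0.01 at the low dose, with a range of -0.18 to 0.09, and 0.11 at the high dose, with a range of -0.04 to 0.20. All genes had a median of -0.00 in both comparisons. At the low dose 0.304% of them passed the size rule downward and 0.441% upward, and 1.59% and 1.75% passed the lower size. At the high dose 0.250% passed the size rule downward and 0.202% upward, and 1.39% and 1.20% passed the lower size. Hmgcs1 had 4.17 in control, 4.26 in low-dose and 4.34 in high-dose brain. Idi1 had 1.23, 1.31 and 1.42 in the same order, Fdps had 2.83, 2.89 and 2.91, and Sqle had 2.62, 2.63 and 2.77. These 4 genes were highest on the high-dose array, by no more than 1 array error over the control. Fdft1 had 3.11 in control, 2.99 in low-dose and 3.14 in high-dose brain. Lss had -0.49, -0.47 and -0.53 in the same order, Cyp51 had 0.62, 0.60 and 0.82, and Dhcr7 had -0.95, -1.13 and -0.97. The dim second Hmgcs1 probe went the other way from the bright one, with differences of -0.53 (low dose) and -0.91 (high dose), and passed the lower size downward on the high-dose array.

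The brain pieces differed in their regional markers. All 7 striatum markers passed the size rule upward in low-dose brain, with a median difference of 1.63, and the 6 hippocampus markers had a median of -1.76 there. In high-dose brain 7 of 8 choroid plexus markers passed the rule downward, with a median of -1.92. All 7 striatum markers were below the control there, with a median of -0.62, and 5 passed the lower size. All 6 hippocampus markers were below it as well, with a median of -0.56, and 3 passed the lower size. Summed spermatid markers were 0.515 in control, 0.478 in low-dose and 10.5 in high-dose brain, with Odf1 not above background on any of these arrays. The 10 oligodendrocyte markers, of the cells that make myelin and its cholesterol, had medians of -0.06 (low dose) and -0.24 (high dose). Astrocyte markers had medians of 0.03 and 0.11 in the same order. Whether these differences bear on the sterol genes was not tested.

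**Figure D2:**
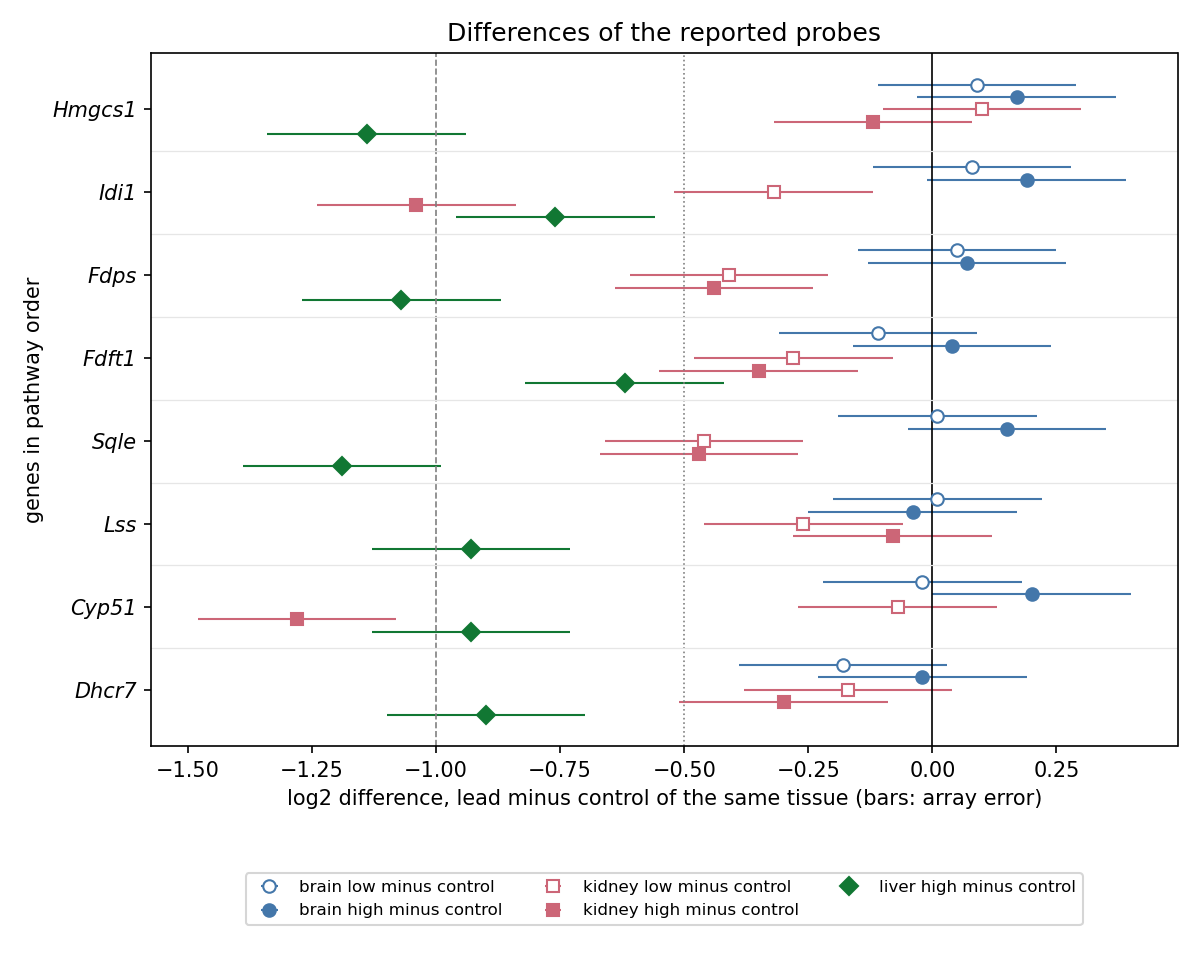
Log2 differences, lead minus control of the same tissue, for the reported probe of each gene in pathway order, with bars of 1 array error. The dashed and dotted lines mark -1 and -0.5. Liver differences run from -0.62 to -1.19, Idi1 and Cyp51 in high-dose kidney lie at -1.04 and -1.28, and brain differences lie between -0.18 and 0.20.

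**Figure D3:**
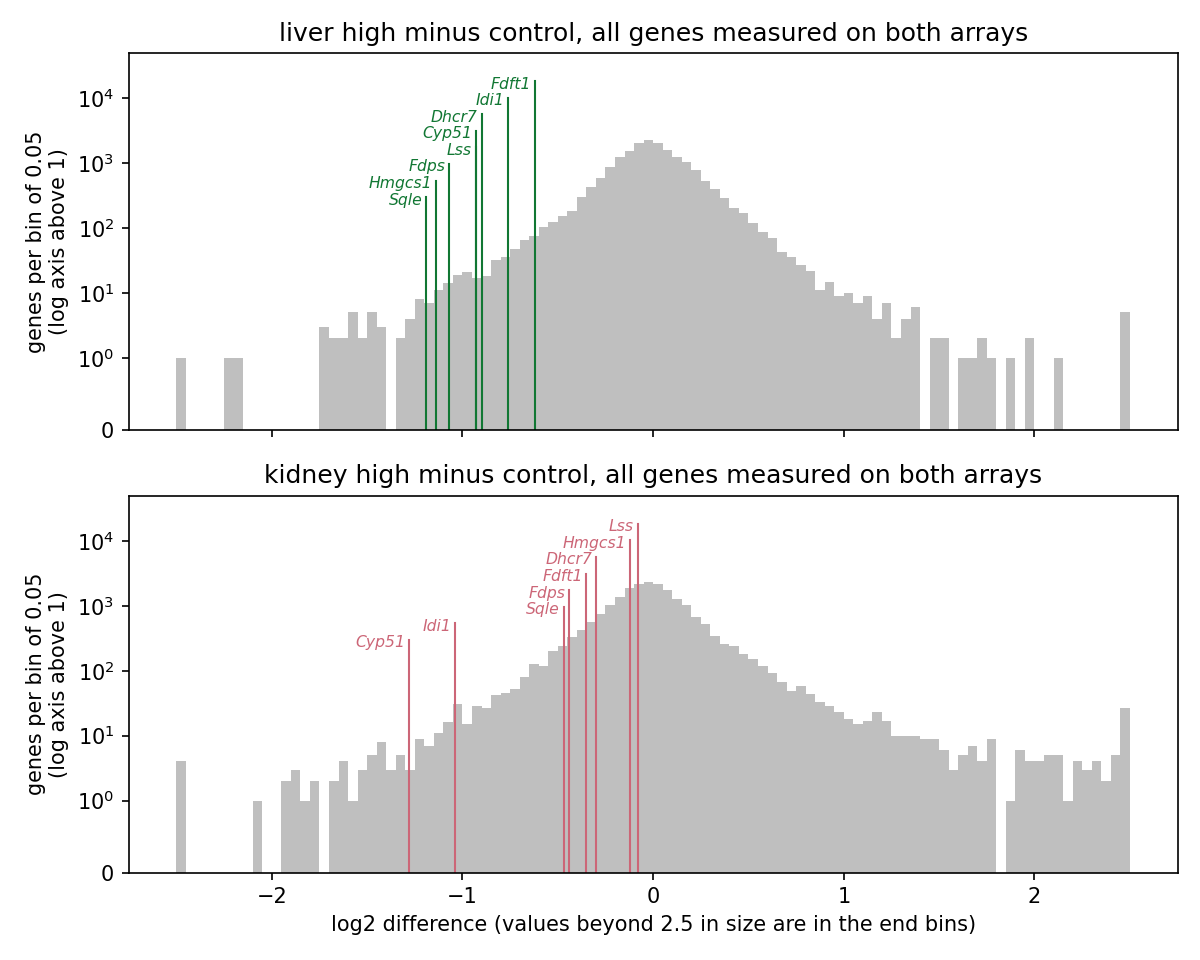
Number of genes per bin of 0.05 log2 units of difference at the high dose, in liver (top, 19167 genes) and kidney (bottom, 21355 genes), on an axis that is logarithmic above 1. Vertical lines mark the 8 members, which in liver all lie at -0.62 or lower and in kidney spread from -1.28 to -0.08.

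Other sterol enzymes gave smaller values in liver. The members were chosen with their differences known, so this gap describes that choice as well as the arrays. Of 11 listed, 10 had a probe under their name and were measured on both liver arrays. None of the 10 passed the size rule, where 0.459% of all genes were called lower. The lower size was passed downward by 4, where 2.63% of all genes passed it. Below the control lay 9, as did 53.9% of all genes, and the median of the 10 was -0.43. The largest was Msmo1, a sterol C4-methyl oxidase, with a level of 3.57 in high-dose liver, against 4.56 in control liver, just short of the size rule. Its other probes gave differences from -1.03 to 0.11, and Nsdhl, which acts next at C4, was at -0.88. In high-dose kidney the median was -0.18 and only Pmvk (phosphomevalonate kinase), at -0.55, passed the lower size, with Msmo1 at -0.50. Of all genes there, 3.14% passed it downward. At the low dose in kidney Msmo1 was at -0.49 and Pmvk at -0.27. In brain the medians of the 10 were -0.06 (low dose) and 0.04 (high dose).

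Genes that sense sterols were mostly near 0, with the Insig genes as exceptions. Of 12 genes, 2 passed the lower size downward in liver, where 2.63% of all genes did, and the list median was -0.12. Insig1, which holds the SREBP complex in the endoplasmic reticulum and is itself a known SREBP target, had -0.94 in liver, -0.45 in low-dose kidney and -0.89 in high-dose kidney. Insig2, its relative, had -0.83 in liver, with other probes at -0.93 to -0.57. Srebf1, the transcription factor gene better known for fatty acid synthesis, had -0.47 in low-dose and -0.35 in high-dose kidney. In brain the largest of this list were Insig1 at -0.33 for the low dose and Srebf1 at -0.24 for the high dose.

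Branches off the pathway lay near 0 in liver. The 8 measured genes of other isoprenoid branches (dolichol, coenzyme Q and protein prenylation) had a median of -0.07 and none passed either size, with Pdss2, of coenzyme Q side-chain synthesis, at -0.35 and Coq2, which attaches that chain, at -0.27. The listed enzymes of ketone metabolism had a median of 0.05. In high-dose kidney, Bdh1, which interconverts the ketone bodies, was at -0.49.

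For the handling of finished cholesterol, 14 genes of LXR signalling, export and storage had a median of 0.03 in liver and none passed either size. The largest were Abca1, the cholesterol exporter, at 0.32 and Soat2, which esterifies cholesterol in liver, also at 0.32. Cyp7a1, the rate-limiting enzyme of bile acid synthesis, was at 0.84 in liver, and Cyp8b1, which makes the cholic acid branch, was at -0.72. Both passed the lower size, as did 400 of all 19167 genes upward and 504 downward. In high-dose kidney Cyp7b1, an oxysterol hydroxylase, was at -0.57 and Cyp46a1, a cholesterol 24-hydroxylase, at -0.53.

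Genes of fatty acid synthesis also lay mostly below the control in liver. Of 10 genes measured, 3 passed the lower size downward (2.63% of all genes did) and 9 lay below the control (53.9% did). Their median was -0.37. Acly, which supplies cytosolic acetyl-CoA to both pathways, was at -0.80 and Fasn (fatty acid synthase) at -0.70. In low-dose kidney Thrsp, a lipogenic regulator, was at -0.62 and Scd1, a fatty acid desaturase, at -0.61. In high-dose kidney no gene of this list passed either size, the largest being Acss2 and Thrsp at -0.32.

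**Figure D4:**
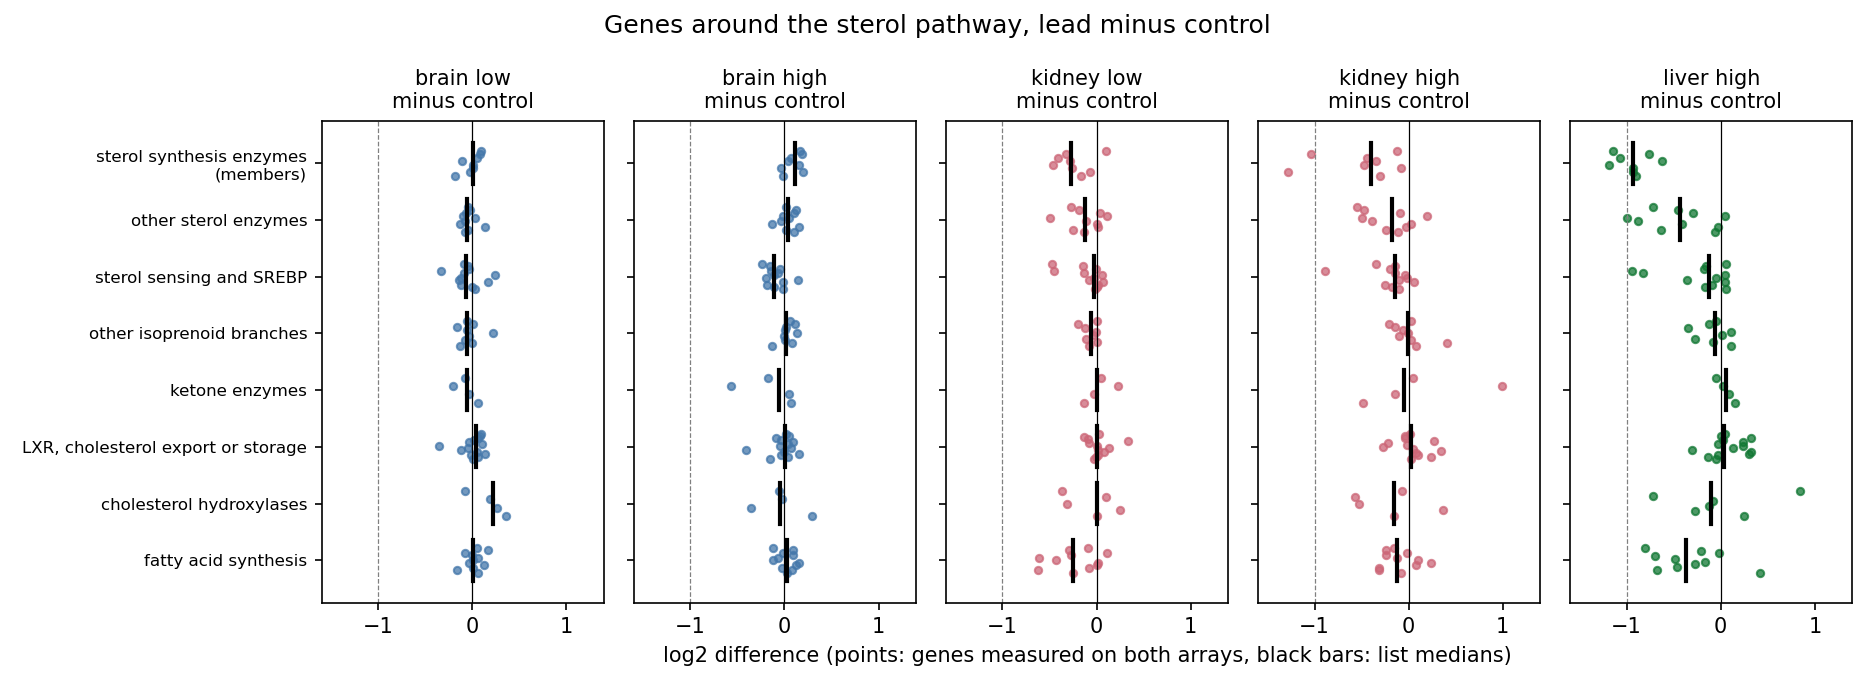
Log2 differences for the members and for 7 lists of genes around the sterol pathway, in the 5 comparisons with control. Each point is a gene measured on both arrays, black bars are list medians and the dashed line marks -1. In liver the members have a median of -0.93, other sterol enzymes -0.43 and fatty acid synthesis -0.37, and the remaining lists lie between -0.12 and 0.05. The members were chosen with their differences known, so their distance from the lists describes that choice as well.

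The levels of the same probe were compared between tissues, a contrast on which the members were not chosen. The arrays were the same, however, and high-dose liver was 1 of the 2 liver arrays. The liver levels therefore hold the differences known at the choice, and an additive dose factor does not take up a difference seen in liver alone. Sqle, for example, had 2.09 in control and 0.91 in high-dose liver, against 2.62 and 2.77 in brain. The fit was limma on 17448 genes that every array measured well above background, with tissue and dose as additive factors, 3 residual degrees of freedom and Benjamini-Hochberg adjustment (threshold 0.05), so the spread is that of 8 arrays. Over all genes the median level was shifted by 0.22 in liver minus kidney, 0.53 in liver minus brain and 0.28 in kidney minus brain, and with each array scaled to its median the shifts were 0.25, 0.84 and 0.56. Most genes differed between tissues in this fit: 46.8% were higher and 27.1% lower in liver than in kidney, 58.1% and 27.4% in liver than in brain, and 51.7% and 29.1% in kidney than in brain.

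Against kidney, where 46.8% of all genes were higher in liver and 27.1% lower, 5 of 8 members differed in liver. Fdps was higher in liver by 3.36 (SE 0.21, limma adjusted p = 4.8e-06), Fdft1 by 2.09 (SE 0.13, limma adjusted p = 4.1e-06), Dhcr7 by 2.26 (SE 0.18, limma adjusted p = 1.7e-05) and Lss by 1.62 (SE 0.20, limma adjusted p = 0.00019). Hmgcs1 was lower in liver by -0.81 (SE 0.25, limma adjusted p = 0.02). That Hmgcs1 call was lost without the high-dose kidney array (limma adjusted p = 0.086) or without the high-dose liver array (limma adjusted p = 0.096). Idi1 at 0.50, Sqle at -0.32 and Cyp51 at -0.44 missed the threshold with limma adjusted p of 0.091, 0.27 and 0.23. Each of these 3 moved with single arrays: Idi1 passed without high-dose brain (0.58), Sqle without control liver (-0.83), and Cyp51 without high-dose brain (-0.33) or high-dose kidney (-0.86).

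Against brain, where 58.1% of all genes were higher in liver and 27.4% lower, all 8 differed in liver, and Sqle alone was lower there. Fdps was higher by 2.51, Dhcr7 by 2.39, Idi1 by 2.16, Lss by 2.03 and Cyp51 by 1.34, with limma adjusted p from 5.9e-06 to 0.0046. Sqle was lower in liver than in brain, by -1.22 (SE 0.25, limma adjusted p = 0.002). Hmgcs1 at 0.69 (limma adjusted p = 0.033) and Fdft1 at 0.44 (limma adjusted p = 0.013) lay close to the shift of 0.53 over all genes, and with quantile normalization they were -0.30 and -0.12. Without control liver they were 0.10 and 0.21 and missed the threshold, and without control brain they were 0.45 and 0.27 and missed it again. Hmgcs1 also missed it without low-dose brain, control kidney or low-dose kidney, at 0.66 in each case.

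Between kidney and brain, some members were higher in kidney and others lower, as were 51.7% and 29.1% of all genes tested. Hmgcs1 was higher in kidney by 1.50 (SE 0.21, limma adjusted p = 0.00031), Idi1 by 1.65 (SE 0.20, limma adjusted p = 0.00013) and Cyp51 by 1.78 (SE 0.27, limma adjusted p = 0.00043). Fdps, Fdft1 and Sqle, the steps that lead into squalene and out of it, were lower in kidney by -0.84, -1.65 and -0.90, with limma adjusted p from 3.1e-06 to 0.0047. Lss at 0.41 (limma adjusted p = 0.054) and Dhcr7 at 0.13 (limma adjusted p = 0.44) did not pass. Scaled to array medians, Dhcr7 was at 0.41 and Lss at 0.69, and both passed. Lss also passed without either liver array, at 0.41 both times, and turned to -0.52 when its probes were averaged.

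Genes outside the lists with a like profile were named by distance from the members' median differences over the 5 comparisons with control, among 12122 candidates. These were the 17448 genes measured on all 8 arrays, less 115 that were members or in the lists and 5211 with clone, model or locus names. The nearest were Lrfn3, with a root mean square distance of 0.11, and Tspyl4 and Clcn6, both at 0.12. The next 5 were Tsc22d1, Atxn7l1, Dpysl4, Phxr1 and Sept7, at 0.14. In liver their differences ran from -0.70 to -1.11. The members themselves lay at 0.09 (Fdps) to 0.41 (Cyp51) from their own median.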

How the data were processed

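Expression was measured on 8 Agilent arrays (design 074809, 1 slide), each with Cy3-labelled cRNA from 50 ng RNA of 1 sample, per the labels' protocols. The intensity values are linear and were background-subtracted and detrended by the authors' scanner software, per the file headers; the submitters' processing notes name Agilent Feature Extraction 12.0.3.1. Flags (other deposited columns) mark background, saturation and outlying spots. A deposited table of intensity equals each array's processed signal divided by a constant. Its scale is linear, it is not centred and its direction is that of the signal. Its medians were 0.112, 0.113 and 0.114 in brain, 0.0940, 0.0905 and 0.0936 in kidney (control, low, high) and 0.0918 in high-dose and 0.0915 in control liver.

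Control, non-uniform and outlier spots were left out, log2 signal was scaled to each array's 75th percentile, and a gene was given by its brightest probe. RefSeq (GRCm38.p6) named 32994 probes by accession, changing 1535 names, and 23611 kept the files' names. Coordinates of probes are mm9. Named genes were all members, the 2 largest of each list per comparison with control, the 8 nearest in profile, and markers given by counts. A result this rule would name is not reported here. Members and lists were chosen with earlier results of these data known. Acat2 was not analysed here. Tissue levels were tested with limma 3.58.1 in R 4.3.3; the rest used Python 3.11.15, numpy 2.4.6 and pandas 2.3.3. The scripts were tested on simulated data. Alternatives were 3 other scalings, the deposited table, 2 filters, averaged probes and, for tissue levels, other designs and left-out arrays. The number of arrays limits the precision.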

Additional observations from a re-analysis of the deposited data

Results flagged for a closer look

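At the high dose, 5 members had a difference past the size rule in 1 organ and a difference of the opposite sign in brain, with 1 array per group on each side. Hmgcs1 was at -1.14 in liver and 0.17 in brain, Fdps at -1.07 in liver and 0.07 in brain, and Sqle at -1.19 in liver and 0.15 in brain. Idi1 was at -1.04 in kidney and 0.19 in brain, and Cyp51 at -1.28 in kidney and 0.20 in brain. The brain direction of Hmgcs1 turned with the probe: its dim second probe was at -0.91 in high-dose brain, and the mean of both probes at -0.37. The reported brain values were within 1 array error of 0, and the difference between organs was not tested.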

How the results depend on the processing

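No paired analysis was possible because each group has 1 sample. Of the counts and medians over the members, 140 moved by less than the array error (medians) or 1.5 times (counts) under the alternatives run, and 3 counts moved by more. The low-dose brain median was -0.05 with averaged probes, against 0.01. In high-dose liver 1 member in place of 3 passed the size rule with quantile normalization, and 1 with normexp and quantile normalization. In high-dose kidney 1 in place of 2 passed with normexp and quantile normalization. Among single genes 714 values kept their call, 11 passed the threshold newly, 15 lost it and 5 differences short of it moved by more than the array error. A further 7 values, in levels between tissues, turned sign. Among these, liver minus brain was -0.30 (Hmgcs1) and -0.12 (Fdft1) with quantile normalization and -0.33 and -0.14 with normexp added. Lss in kidney minus brain was -0.52 with averaged probes, Dhcr7 there ran from -0.00 (without control brain) to 0.31 over single arrays left out, and Sqle in liver minus kidney from -0.83 to 0.19 (without high-dose liver). Averaging the bright and dim Hmgcs1 probes also turned the sign, to -0.22 and -0.37 in low- and high-dose brain, -0.15 in brain high minus low dose and -0.18 in low-dose kidney. Sqle in low-dose brain, at 0.01, was -0.01 with quantile normalization. The cause of these changes was not tested. Leaving out single arrays gave 4 to 7 members differing in liver minus kidney, 6 to 8 in liver minus brain and 6 to 7 in kidney minus brain, where a lone liver array was assumed to vary like the others. Probes near background limit the second Hmgcs1 and Sqle probes.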
